A study of Mus musculus with 18 samples.

Results

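The response of 2 mouse ovarian cancer cell lines to loss of Cd276 was compared gene by gene, as the Cd276KO-minus-control difference in ID8 cells minus the same difference in HM-1 cells. The comparison used 12 of the 18 libraries of the study, the cultured cells, and left out 6 libraries of HM-1 tumors. Each of the 4 groups had 3 libraries, described by the submitters as biological replicates: HM-1 cells labelled control, HM-1 cells labelled Cd276KO, ID8 cells labelled control and ID8 cells labelled Cd276KO. HM-1 cells are labelled with strain B6C3F1 and were grown in MEM alpha, and ID8 cells are labelled with strain C57BL6 and were grown in RPMI 1640, both with heat-inactivated serum and antibiotics. None of the methods of knockout, the cargo of the control cells and the number of clones or separate cultures in a group is given in the sources used here. The knockout and any property of a single knockout line therefore cannot be told apart within a cell line, and the cell line, its strain and its medium cannot be told apart between the lines. The p-values below measure the spread between these libraries, which may be technical.

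Cd276 encodes the immune checkpoint ligand B7-H3, which sits on the surface of many carcinoma cells at high levels. HM-1 and ID8 are transplantable mouse models of ovarian cancer, and ID8 was derived from ovarian surface epithelium, a tissue that shares many markers with the mesothelium. A gene knocked out in more than 1 cell line can change the same genes in each, different genes in each, or the same genes in opposite directions, and an interaction term tests which genes respond differently. In this text a gene is called when its adjusted p is under 0.05 by edgeR's quasi-likelihood test with Benjamini-Hochberg adjustment over all 14208 genes tested, levels are counts per 1000000 counts of the library (CPM), and effects are log2 fold changes of Cd276KO over control with their standard error (SE).

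Total counts were 17631035 to 25354150 in HM-1 controls, 19393907 to 20945275 in HM-1 Cd276KO libraries, 26325938 to 30959773 in controls of ID8 and 23602885 to 28089793 in its Cd276KO libraries. HM-1 control library 1 stood apart: its counts differed from those of the other 2 HM-1 controls by a chi-square of 63.9 to 64.9 per gene, against 1.57 between those 2 and 2.52 to 13.9 within the other groups. Its genes with the shortest transcripts held 33.8% of its counts, against 25.2% to 29.2% in the other 11 libraries. For this reason the main counts below are also given without it. Counts of most gene lists are given with all libraries only, and many of them moved without it. Cd276 (chr9:58524298-58555437, minus strand), on which the labels rest, was measured at 74.2, 93.5 and 91.5 CPM in HM-1 controls and 47.2, 47.7 and 44.8 CPM in HM-1 Cd276KO libraries. Cd276 in ID8 was at 21.1, 21.1 and 20.6 CPM in controls and 18.3, 18.8 and 21.01 CPM in Cd276KO libraries. Its level fell in HM-1 (log2 fold change -0.85, SE 0.09, edgeR Benjamini-Hochberg adjusted p = 7.36e-06) with no overlap between the groups. In ID8 it was -0.05 (SE 0.09, edgeR Benjamini-Hochberg adjusted p = 0.72), so the RNA level of the whole gene does not check the ID8 label. The epithelial keratins Krt8 and Krt18 were high in all 4 groups and the mesothelial factor Wt1 was high in ID8 alone, at 573 ± 19.996 CPM in its controls (SD, n = 3), while the leukocyte markers Ptprc and Csf1r reached at most 0.334 CPM and the T cell marker Cd3e was at 0 in all 12 libraries. Krt19, another epithelial keratin, was also high, with control and Cd276KO means of 1141 and 1736 CPM in HM-1 and 724 and 703 CPM in ID8. Epcam and E-cadherin were far lower. Epcam was at 0 in both HM-1 groups and had means of 0.512 and 0.597 CPM in ID8 controls and Cd276KO libraries. E-cadherin, Cdh1, had means of 0.116 and 0.400 CPM in HM-1 and 9.97 and 1.99 CPM in ID8. The mesenchymal marker Vim was high in all 4 groups, with means of 5589 and 4625 CPM in HM-1 and 2492 and 2496 CPM in ID8. The summed level of 13 T cell and NK markers was 4.43 to 5.39 CPM in ID8 controls and 0.890 to 1.28 CPM in ID8 Cd276KO libraries, nearly all of it Trac, and 11 of the 13 had no count there. The summed level of 10 endothelial markers was 26.1 to 28.5 CPM in ID8 controls and 61.4 to 66.0 CPM in ID8 Cd276KO libraries, led by Esam and with 5 markers at 0, and 5.84 to 6.47 and 2.46 to 3.82 CPM in HM-1, and their part in the results was not tested.

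Promoter sequences of 9 genes are shown first to give the sequence context of genes described below, from the interferon, chemokine and hypoxia lists. Each sequence is RefSeq's on GRCm38.p6, runs from 250 bases before the transcription start to 50 after it, and has the matches to 1 motif in capitals, on either strand. For the interferon genes the capitals mark GAAA, any 2 bases and GAAA again, the core of the interferon-stimulated response element. Ifit1 (chr19:34640639-34640938 on the plus strand) and Isg15 (chr4:156200769-156201068 on the minus strand) were lower in ID8 with no call in HM-1, and Gbp2 (chr3:142620413-142620712 on the plus strand) and Cxcl10 (chr5:92348840-92349139 on the minus strand) were lower in ID8 and higher in HM-1.
Ifit1: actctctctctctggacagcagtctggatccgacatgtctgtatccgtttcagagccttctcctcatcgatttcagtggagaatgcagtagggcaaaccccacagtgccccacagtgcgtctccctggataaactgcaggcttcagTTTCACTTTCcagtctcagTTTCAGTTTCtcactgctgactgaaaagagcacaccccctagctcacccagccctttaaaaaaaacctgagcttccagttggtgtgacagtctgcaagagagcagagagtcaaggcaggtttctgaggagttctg
Isg15: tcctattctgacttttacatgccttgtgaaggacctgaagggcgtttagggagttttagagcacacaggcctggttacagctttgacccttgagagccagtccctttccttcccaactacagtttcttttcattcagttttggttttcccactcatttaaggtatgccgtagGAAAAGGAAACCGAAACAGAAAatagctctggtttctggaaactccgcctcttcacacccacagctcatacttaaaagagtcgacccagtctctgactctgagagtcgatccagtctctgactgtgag
Gbp2: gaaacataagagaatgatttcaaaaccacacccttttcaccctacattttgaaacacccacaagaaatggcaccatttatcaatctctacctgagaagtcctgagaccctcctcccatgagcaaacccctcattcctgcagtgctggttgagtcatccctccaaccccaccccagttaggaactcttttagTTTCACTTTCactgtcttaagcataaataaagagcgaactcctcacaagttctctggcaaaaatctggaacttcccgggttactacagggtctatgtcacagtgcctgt
Cxcl10: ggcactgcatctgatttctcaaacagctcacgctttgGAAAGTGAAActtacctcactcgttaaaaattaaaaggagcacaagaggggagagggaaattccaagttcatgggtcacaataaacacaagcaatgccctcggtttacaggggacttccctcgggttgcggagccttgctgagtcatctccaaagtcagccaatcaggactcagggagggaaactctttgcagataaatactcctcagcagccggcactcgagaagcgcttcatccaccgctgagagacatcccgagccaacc
The chemokine genes Cxcl1 (chr5:90890995-90891294 on the plus strand) and Cxcl2 (chr5:90903649-90903948 on the plus strand) are neighbours, and capitals mark an NF-kB motif, GGGA, any 2 bases and TTCC.
Cxcl1: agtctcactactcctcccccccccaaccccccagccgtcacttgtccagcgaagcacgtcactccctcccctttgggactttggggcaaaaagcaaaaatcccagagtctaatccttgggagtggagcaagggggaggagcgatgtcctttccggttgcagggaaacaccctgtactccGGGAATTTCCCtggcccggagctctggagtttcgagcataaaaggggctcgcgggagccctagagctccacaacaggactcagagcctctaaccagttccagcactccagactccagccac
Cxcl2: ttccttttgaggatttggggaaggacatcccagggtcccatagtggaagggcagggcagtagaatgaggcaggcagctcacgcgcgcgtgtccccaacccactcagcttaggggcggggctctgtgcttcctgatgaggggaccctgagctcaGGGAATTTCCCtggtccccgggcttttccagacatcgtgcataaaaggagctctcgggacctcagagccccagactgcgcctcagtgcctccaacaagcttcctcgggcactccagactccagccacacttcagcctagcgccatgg
For Bnip3 (chr7:138909457-138909756 on the minus strand), Pgk1 (chrX:106186850-106187149 on the plus strand) and Ldha (chr7:46845554-46845853 on the plus strand), capitals mark ACGTG, the core of the hypoxia response element.
Bnip3: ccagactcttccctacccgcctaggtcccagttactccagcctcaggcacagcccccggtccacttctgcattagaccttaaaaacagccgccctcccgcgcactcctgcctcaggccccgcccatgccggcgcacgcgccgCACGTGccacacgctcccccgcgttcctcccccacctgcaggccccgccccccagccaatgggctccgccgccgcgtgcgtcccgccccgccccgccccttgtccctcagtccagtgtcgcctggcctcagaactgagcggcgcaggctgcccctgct
Pgk1: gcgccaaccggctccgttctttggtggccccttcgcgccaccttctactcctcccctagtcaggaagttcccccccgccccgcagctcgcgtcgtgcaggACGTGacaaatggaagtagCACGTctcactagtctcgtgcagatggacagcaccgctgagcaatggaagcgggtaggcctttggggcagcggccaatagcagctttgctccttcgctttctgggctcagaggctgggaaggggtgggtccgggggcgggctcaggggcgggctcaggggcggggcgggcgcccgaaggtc
Ldha: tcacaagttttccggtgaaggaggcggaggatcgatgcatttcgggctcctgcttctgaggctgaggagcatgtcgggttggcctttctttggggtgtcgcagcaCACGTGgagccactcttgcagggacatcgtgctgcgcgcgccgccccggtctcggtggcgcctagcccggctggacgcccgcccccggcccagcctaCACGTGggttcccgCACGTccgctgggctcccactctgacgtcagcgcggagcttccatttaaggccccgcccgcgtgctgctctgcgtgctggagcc
Overlapping matches were allowed and share their capitals. The interferon motif was found in 13 of the 23 interferon response genes with a promoter entry (56.5%) and in 3.99% of the 27025 genes with one, the hypoxia core in 20 of 28 glycolysis and hypoxia genes (71.4%) and 21.8% of all, and the NF-kB motif in 4 of 17 genes of its list (23.5%) and 1.63% of all. Of the 10292 genes tested with a promoter entry, 3.60% held the interferon motif, 28.98% the hypoxia core and 1.74% the NF-kB motif. A match is a description of the letters and not a site of binding.

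The knockout contrast called 5226 genes in HM-1 (36.8% of the genes tested), 2355 higher and 2871 lower (16.6% and 20.2%), and 6079 genes in ID8 (42.8%), 2722 higher and 3357 lower (19.2% and 23.6%). The difference between the lines was itself called for 5747 genes (40.4%), for 2807 of them with the higher value in ID8 (19.8%) and for 2940 with the lower (20.7%), and for 2085 (14.7%) it was over 2-fold. The overlaps between the lines lay near the shares of all genes. Of the 2355 genes higher in HM-1, 16.9% were higher in ID8, where 19.2% of all genes were, and 28.1% were lower, where 23.6% of all genes were. Of the 2871 genes lower in HM-1, 26.9% were lower in ID8 (23.6% of all genes) and 21.8% were higher (19.2% of all genes). The same overlaps made up 14.7%, 19.7%, 23.03% and 22.96% of the ID8 lists that they fell in. Across the 14208 genes the effects in the 2 lines had a Pearson r of 0.06 and a Spearman rho of -0.04, a description over genes that share libraries and are not independent replicates. Without HM-1 control library 1 the calls were 6511 in HM-1 (44.7%), 8488 in ID8 (58.3%) and 7143 for the difference (49.0%), and r and rho were 0.07 and 0.04.

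**Figure D1:**
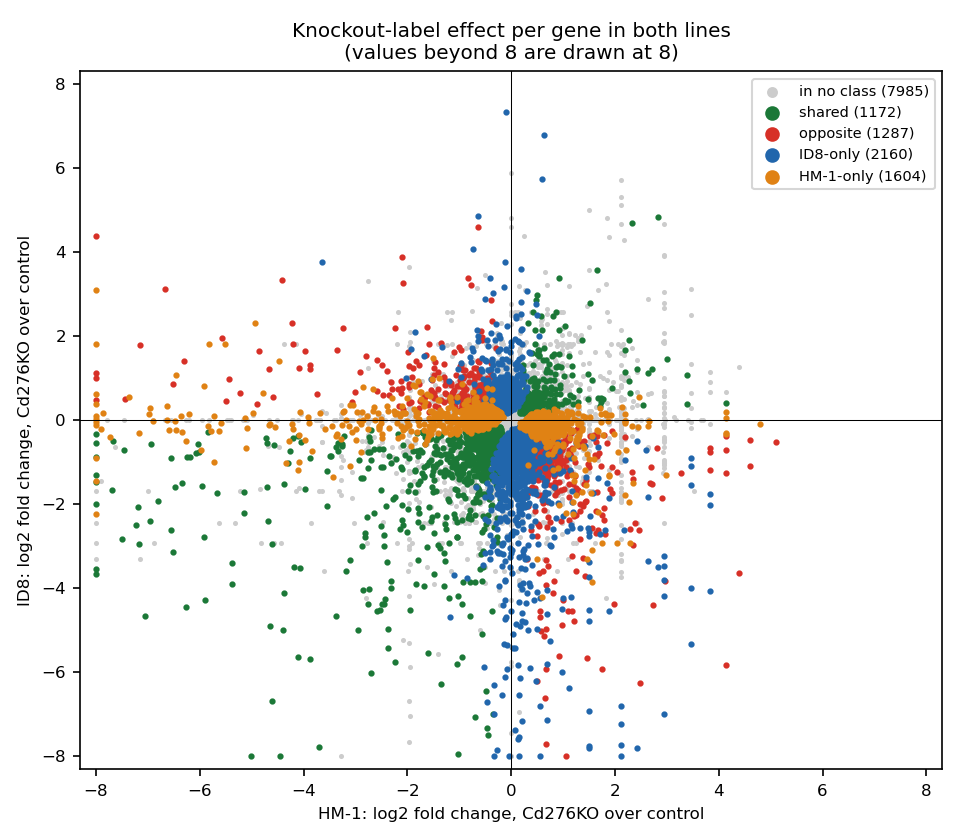
Each point is 1 of 14208 genes, with its log2 fold change in HM-1 on the horizontal axis and in ID8 on the vertical axis (values beyond 8 are drawn at 8), coloured by whether it was called in both lines the same way (1172 genes), in both lines opposite ways (1287), in ID8 alone with the difference called (2160) or in HM-1 alone with the difference called (1604). The cloud has no diagonal trend, and the largest effects lie along the 2 axes.

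Genes called in both lines in the same direction were classed as shared, those called in both lines in opposite directions as opposite, and those called in 1 line with the difference called as ID8-only or HM-1-only. Shared genes numbered 399 higher (2.81% of the genes tested) and 773 lower (5.44%). Opposite genes numbered 625 with ID8 higher (4.4%) and 662 with HM-1 higher (4.66%), 1287 in all against 1172 shared, an order that turned without HM-1 control library 1 (2023 against 2123). The ID8-only classes held 951 higher and 1209 lower genes (6.69% and 8.51%), and the HM-1-only classes 716 higher and 888 lower (5.04% and 6.25%). In 44 and 174 of the ID8-only genes and in 62 and 76 of the HM-1-only genes the other line had under 1 CPM. A further 1163 genes were called in HM-1 and 1460 in ID8 without a call on the difference, and these were left unclassed. Without HM-1 control library 1 the shared classes came to 883 and 1240 genes, the opposite classes to 983 and 1040, the ID8-only classes to 1275 and 1412 and the HM-1-only classes to 655 and 761. Of the genes classed with all libraries, 383 and 741 kept a shared class, 584 and 630 an opposite class, 791 and 1001 an ID8-only class and 430 and 543 an HM-1-only class.

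Most shared changes were small, and most of the shared changes over 2-fold were decreases. The median effect of the shared higher class was 0.40 in both lines, and that of the shared lower class was -0.64 in HM-1 and -0.77 in ID8. Over 2-fold in both lines, 169 genes were lower and 19 higher, and of all genes 5.89% were lower by that much in HM-1 and 8.28% in ID8, and 2.67% and 2.74% higher. The 169 made up 20.2% of the 837 genes lower by over 2-fold in HM-1 and 14.4% of the 1176 lower in ID8. Even within the shared classes the size of the effect differed between the lines for 97 higher and 288 lower genes.

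Ccl2 (chr11:82035571-82037453, plus strand), the chemokine that draws monocytes through their receptor Ccr2, was measured at 18.5, 13.2 and 15.6 CPM in HM-1 controls and 0.0955, 0.205 and 0 CPM in HM-1 Cd276KO libraries. Ccl2 in ID8 was at 52.2, 38.2 and 44.5 CPM in controls and 5.12, 5.52 and 6.10 CPM in Cd276KO libraries. All 6 Cd276KO libraries lay below their controls, and the HM-1 Cd276KO libraries were at or near 0. The log2 fold changes were -7.18 (SE 0.35) in HM-1 and -2.94 (SE 0.17) in ID8, and they differed by 4.23 (SE 0.50, edgeR Benjamini-Hochberg adjusted p = 2.41e-05). Slit2 (chr5:47983138-48307733, plus strand), a secreted guidance cue for Robo receptors, was measured at 20.99, 37.5 and 38.3 CPM in HM-1 controls and 0.573, 0.410 and 0.567 CPM in HM-1 Cd276KO libraries. Slit2 in ID8 was at 7.61, 7.01 and 7.60 CPM in controls and 0.485, 0.356 and 0.212 CPM in Cd276KO libraries. It fell to under 1 CPM in every Cd276KO library of both lines, with log2 fold changes of -5.91 (SE 0.28) in HM-1 and -4.29 (SE 0.31) in ID8, a difference of 1.62 (SE 0.56, edgeR Benjamini-Hochberg adjusted p = 0.0338).

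Pogk and Renbp were named by the same rule. Pogk (chr1:166384622-166409863, minus strand), a nuclear protein with a transposase-derived domain whose exons overlap those of Tada1, was measured at 27.8, 51.04 and 55.4 CPM in HM-1 controls and 0.239, 0.307 and 0.309 CPM in HM-1 Cd276KO libraries. Pogk in ID8 was at 6.15, 5.56 and 5.05 CPM in controls and 1.01, 0.783 and 1.06 CPM in Cd276KO libraries. Its counts were lower in every Cd276KO library than in any control of the same line, with log2 fold changes of -7.23 (SE 0.32) in HM-1 and -2.49 (SE 0.28) in ID8. Renbp (chrX:73922121-73930850, minus strand), a sugar epimerase also named as the renin-binding protein, was measured at 17.2, 11.4 and 12.1 CPM in HM-1 controls and 0.0955, 0.102 and 0.103 CPM in HM-1 Cd276KO libraries. Renbp in ID8 was at 23.9, 23.2 and 26.4 CPM in controls and 4.93, 4.91 and 3.30 CPM in Cd276KO libraries. The HM-1 Cd276KO libraries held about 0.1 CPM and the ID8 ones remained above 3 CPM, with log2 fold changes of -6.96 (SE 0.34) in HM-1 and -2.40 (SE 0.17) in ID8. The differences between the lines, 4.74 and 4.56, were both called (edgeR Benjamini-Hochberg adjusted p = 1.56e-05 for Pogk and 7.75e-06 for Renbp). A further shared decrease, chosen after its values were seen, was the matrix glycoprotein tenascin C (Tnc, -5.91 in HM-1 and -2.77 in ID8). The apoptosis inhibitor Birc3, picked by the rule for gene lists, was also lower in both lines (-6.04 in HM-1 and -0.56 in ID8).

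Of the shared increases, Atoh8 (chr6:72206177-72235577, minus strand), a basic helix-loop-helix transcription factor, was measured at 33.5, 31.1 and 29.6 CPM in HM-1 controls and 62.3, 74.5 and 69.2 CPM in HM-1 Cd276KO libraries. Atoh8 in ID8 was at 7.90, 8.33 and 9.34 CPM in controls and 17.03, 16.7 and 17.7 CPM in Cd276KO libraries. Each Cd276KO library lay above every control of its line, the effects were 1.17 (SE 0.09) and 1.08 (SE 0.10), and the difference was -0.10 (SE 0.13, edgeR Benjamini-Hochberg adjusted p = 0.604). Lmo7 (chr14:101729957-101934710, plus strand), a LIM domain protein of actin and cell junctions, was measured at 152, 246 and 243 CPM in HM-1 controls and 399.8, 381 and 391 CPM in HM-1 Cd276KO libraries. Lmo7 in ID8 was at 33.2, 35.6 and 33.3 CPM in controls and 94.2, 102 and 94.1 CPM in Cd276KO libraries. Its groups did not overlap in either line, and HM-1 control library 1 was far below the other 2 HM-1 controls. Lmo7 rose by 0.91 (SE 0.13) in HM-1 and 1.58 (SE 0.14) in ID8. Atp6v0e2, a subunit of the proton pump of lysosomes, had log2 fold changes of 1.17 (SE 0.14) in HM-1 and 1.30 (SE 0.14) in ID8, and Plekhh1, a pleckstrin homology domain protein whose exons overlap those of Pigh, had log2 fold changes of 1.01 (SE 0.24) in HM-1 and 1.05 (SE 0.25) in ID8. For these 2 genes the difference was small (0.13 and 0.04) and its sign changed under some of the alternatives. The summed level of 14 macrophage markers, led by Cd14, was 81.9 to 96.1 CPM in HM-1 controls and 119.7 to 129 CPM in HM-1 Cd276KO libraries, and 6.04 to 6.95 and 5.70 to 6.91 CPM in ID8. Mrc1, one of them, the mannose receptor known from macrophages, was at 15.03, 18.02 and 19.8 CPM in HM-1 controls and 56.6, 50.9 and 53.1 CPM in HM-1 Cd276KO libraries. Mrc1 in ID8 was at 0.109, 0.129 and 0.0380 CPM in controls and 1.05, 1.42 and 0.847 CPM in Cd276KO libraries. It rose in both lines and by more in ID8, with log2 fold changes of 1.64 (SE 0.12) in HM-1 and 3.56 (SE 0.37) in ID8 and a difference of 1.92 (SE 0.43, edgeR Benjamini-Hochberg adjusted p = 0.00317), while its level in ID8 stayed near 1 CPM. The part of other cells in this rise was not tested.

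In the opposite classes the median effects were of similar size on each side, while those of single genes named below were often unequal. The class with ID8 higher had median effects of -0.49 in HM-1 and 0.45 in ID8, and the class with HM-1 higher 0.52 and -0.63. Over 2-fold in both lines, 44 genes fell in HM-1 and rose in ID8, 5.26% of the HM-1 list (2.74% of all genes were higher by that much in ID8) and 11.3% of the ID8 list (5.89% of all genes were lower by that much in HM-1). In the other direction 71 genes rose in HM-1 and fell in ID8, 18.7% of the 379 genes higher in HM-1 (8.28% of all genes were lower by that much in ID8) and 6.04% of the ID8 list (2.67% of all genes were higher by that much in HM-1).

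Perp (chr10:18845020-18857073, plus strand), a membrane protein of desmosomes and a p53 target, was measured at 18.5, 15.03 and 14.4 CPM in HM-1 controls and 0, 0 and 0 CPM in HM-1 Cd276KO libraries. Perp in ID8 was at 112, 114 and 111 CPM in controls and 235, 228 and 241 CPM in Cd276KO libraries. No HM-1 Cd276KO library held a read, at least 314-fold lower than the HM-1 controls when the empty group is given 3 counts in all. All 3 ID8 Cd276KO libraries lay far above the ID8 controls, with a log2 fold change of 1.13 (SE 0.09, edgeR Benjamini-Hochberg adjusted p = 1.75e-06). Bcam (chr7:19756131-19771016, minus strand), a laminin receptor of epithelia, was measured at 45.998, 45.002 and 42.9 CPM in HM-1 controls and 1.24, 2.15 and 1.70 CPM in HM-1 Cd276KO libraries. Bcam in ID8 was at 57.1, 58.3 and 68.03 CPM in controls and 129, 133 and 146 CPM in Cd276KO libraries. The 2 control groups were close in level, and the knockout libraries of the 2 lines lay far apart on either side of them, with log2 fold changes of -4.68 (SE 0.15) in HM-1 and 1.22 (SE 0.11) in ID8 and a difference of 5.90 (SE 0.18, edgeR Benjamini-Hochberg adjusted p = 3.01e-10).

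Aif1l (chr2:31950139-31973442, plus strand), an actin-binding relative of the macrophage protein Aif1, was measured at 46.8, 47.7 and 44.2 CPM in HM-1 controls and 16.4, 16.03 and 15.7 CPM in HM-1 Cd276KO libraries. Aif1l in ID8 was at 37.9, 34.5 and 36.9 CPM in controls and 81.8, 85.7 and 79.1 CPM in Cd276KO libraries. It fell in HM-1 by about the amount it rose in ID8, with log2 fold changes of -1.48 (SE 0.07) in HM-1 and 1.24 (SE 0.07) in ID8. Ctsh, a lysosomal cysteine protease, was at 7.49, 6.47 and 6.08 CPM in HM-1 controls and 0.430, 0.461 and 0.413 CPM in HM-1 Cd276KO libraries. Ctsh in ID8 was at 2.88, 2.23 and 3.49 CPM in controls and 6.80, 6.05 and 6.10 CPM in Cd276KO libraries. It was under 0.5 CPM in every HM-1 Cd276KO library and rose in ID8, with log2 fold changes of -3.88 (SE 0.22) in HM-1 and 1.21 (SE 0.16) in ID8. Krt18, a keratin of simple epithelia, fell in HM-1 (-0.68) and rose in ID8 (0.77), a difference of 1.45 (SE 0.13, edgeR Benjamini-Hochberg adjusted p = 2.90e-06), while its partner Krt8 was called in neither line (-0.02 in HM-1 and 0.08 in ID8). The chaperone Hspb1 was at 59.8, 44.1 and 41.3 CPM in HM-1 controls and 23.4, 24.9 and 22.8 CPM in HM-1 Cd276KO libraries. Hspb1 in ID8 was at 37.7, 36.8 and 43.6 CPM in controls and 82.3, 89.9 and 104 CPM in Cd276KO libraries. Both lines showed separated groups in opposite directions, with log2 fold changes of -0.98 (SE 0.14) in HM-1 and 1.29 (SE 0.14) in ID8.

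Bmp2 (chr2:133552159-133562885, plus strand), a secreted ligand of the bone morphogenetic protein family, was in the class with HM-1 higher, at 23.3, 24.5 and 25.2 CPM in HM-1 controls and 125, 123 and 110.3 CPM in HM-1 Cd276KO libraries. Bmp2 in ID8 was at 49.6, 53.9 and 53.2 CPM in controls and 16.4, 18.9 and 21.3 CPM in Cd276KO libraries. It rose in HM-1 and fell in ID8 with no overlap, with log2 fold changes of 2.34 (SE 0.09) in HM-1 and -1.40 (SE 0.09) in ID8 and a difference of -3.74 (SE 0.13, edgeR Benjamini-Hochberg adjusted p = 8.11e-10). Plxna2 (chr1:194618218-194816869, plus strand), a receptor for semaphorins, was measured at 11.6, 25.6 and 27.2 CPM in HM-1 controls and 52.5, 51.02 and 54.3 CPM in HM-1 Cd276KO libraries. Plxna2 in ID8 was at 5.32, 5.39 and 4.90 CPM in controls and 0.934, 1.42 and 1.36 CPM in Cd276KO libraries. HM-1 control library 1 was well below the other 2 HM-1 controls, and every HM-1 Cd276KO library lay above all 3. Plxna2 had log2 fold changes of 1.33 (SE 0.21) in HM-1 and -2.001 (SE 0.32) in ID8. Cemip, a protein that breaks down hyaluronan, and Tns4, a focal adhesion adaptor, behaved alike in direction. Cemip had log2 fold changes of 1.33 (SE 0.18) in HM-1 and -2.83 (SE 0.29) in ID8, and Tns4 log2 fold changes of 2.04 (SE 0.17) in HM-1 and -1.23 (SE 0.23) in ID8.

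The ID8-only class had more losses over 2-fold than gains, 540 against 131. Ly6e (chr15:74955051-74959905, plus strand), a membrane-anchored protein induced by interferon, was measured at 1923, 1440.2 and 1436 CPM in HM-1 controls and 1484, 1529 and 1486 CPM in HM-1 Cd276KO libraries. Ly6e in ID8 was at 19.6, 21.1 and 20.5 CPM in controls and 0.0373, 0.0356 and 0 CPM in Cd276KO libraries. The 3 ID8 Cd276KO libraries held 2 reads in all, and the ratio of control over Cd276KO was 801 (95% counting interval 221 to 6619). In HM-1, where the gene was abundant, the effect was -0.05 (SE 0.11, edgeR Benjamini-Hochberg adjusted p = 0.744). Bnip3 (chr7:138890836-138909519, minus strand), a mitochondrial protein induced in hypoxia that takes part in mitophagy, was measured at 20.2, 14.7 and 15.2 CPM in HM-1 controls and 14.3, 15.5 and 13.1 CPM in HM-1 Cd276KO libraries. Bnip3 in ID8 was at 21.2, 18.1 and 17.9 CPM in controls and 0.187, 0.142 and 0.254 CPM in Cd276KO libraries. Its 6 control libraries and the HM-1 Cd276KO libraries spanned 13.1 to 21.2 CPM and the ID8 Cd276KO libraries stood alone below 0.3 CPM, with log2 fold changes of -0.18 (SE 0.13) in HM-1 and -6.53 (SE 0.22) in ID8. Cxcl5 (chr5:90759360-90761624, plus strand), a chemokine for neutrophils, was measured at 27.2, 20.9 and 19.01 CPM in HM-1 controls and 26.8, 24.5 and 23.2 CPM in HM-1 Cd276KO libraries. Cxcl5 in ID8 was at 24.6, 21.5 and 18.7 CPM in controls and 0.149, 0.142 and 0.127 CPM in Cd276KO libraries. Its pattern was that of Bnip3, and its log2 fold change in ID8 was -7.15 (SE 0.25, edgeR Benjamini-Hochberg adjusted p = 3.80e-10), against 0.20 in HM-1. Kctd14, a protein of the family with a tetramerisation domain of potassium channels, had log2 fold changes of -0.13 (SE 0.16) in HM-1 and -6.10 (SE 0.22) in ID8.

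The ID8-only increases, a class that also held 41 of 79 genes of cytosolic ribosomal proteins, are described by the 4 genes with the largest difference among those with at least 5 CPM in both lines and separated ID8 groups. Itgb4 (chr11:115974709-116008412, plus strand), the laminin-binding integrin subunit of hemidesmosomes, was at 124, 204 and 199 CPM in HM-1 controls and 117, 138 and 133 CPM in HM-1 Cd276KO libraries. Itgb4 in ID8 was at 3.39, 2.20 and 2.89 CPM in controls and 12.3, 11.5 and 9.96 CPM in Cd276KO libraries. It rose in ID8, where all Cd276KO libraries exceeded the controls, while in HM-1 the groups overlapped and control library 1 was the lowest of the controls, with log2 fold changes of -0.40 (SE 0.16) in HM-1 and 2.07 (SE 0.21) in ID8. F2rl1, a receptor activated by proteases such as trypsin, had log2 fold changes of 0.30 (SE 0.12) in HM-1 and 3.08 (SE 0.21) in ID8. Zbtb8a, a zinc finger protein whose exons overlap those of Zbtb8os, had log2 fold changes of -0.13 (SE 0.15) in HM-1 and 3.16 (SE 0.17) in ID8, and Dock4, an activator of Rac, had log2 fold changes of 0.09 (SE 0.22) in HM-1 and 2.49 (SE 0.31) in ID8. The differences between lines for these 4 genes were 2.47, 2.78, 3.29 and 2.40. Without HM-1 control library 1, Itgb4, F2rl1, Dock4 and Cxcl5 had another class, with the difference between the lines still called.

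In HM-1, 4 genes expressed in both lines were nearly lost from the Cd276KO libraries and stayed near their control level in ID8. Ckap4 (chr10:84526305-84534062, minus strand), an anchor of the endoplasmic reticulum membrane, was measured at 109.9, 103 and 107 CPM in HM-1 controls and 0, 0 and 0 CPM in HM-1 Cd276KO libraries. Ckap4 in ID8 was at 65.6, 68.2 and 69.8 CPM in controls and 63.7, 65.97 and 69.6 CPM in Cd276KO libraries. No read was found in the 3 HM-1 Cd276KO libraries, at least 2126-fold below the controls, and the ID8 effect was 0.04 (SE 0.07, edgeR Benjamini-Hochberg adjusted p = 0.715). Akip1, a protein that binds protein kinase A, was at 6.18, 5.52 and 5.11 CPM in HM-1 controls and 0, 0 and 0 CPM in HM-1 Cd276KO libraries. Akip1 in ID8 was at 27.8, 25.8 and 28.6 CPM in controls and 23.7, 26.1 and 26.6 CPM in Cd276KO libraries. Its HM-1 Cd276KO libraries held no read, at least 111-fold lower. Tmem37, a membrane protein related to calcium channel subunits, was also at 0 in all 3, at least 108-fold lower, against 0.10 in ID8. Ivns1abp, a kelch-repeat protein that binds actin and whose exons overlap those of Gm10138, was at 56.3, 62.7 and 67.7 CPM in HM-1 controls and 0.143, 0.102 and 0 CPM in HM-1 Cd276KO libraries. Ivns1abp in ID8 was at 202, 218 and 192 CPM in controls and 186, 172 and 179 CPM in Cd276KO libraries. It was nearly lost in HM-1, with log2 fold changes of -9.41 (SE 0.21) in HM-1 and -0.12 (SE 0.10) in ID8.

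Among the HM-1-only increases, Msln (chr17:25748613-25754378, minus strand), mesothelin, a surface protein of mesothelium and ovarian carcinoma, was measured at 14.5, 12.2 and 12.7 CPM in HM-1 controls and 44.7, 49.6 and 44.1 CPM in HM-1 Cd276KO libraries. Msln in ID8 was at 232, 235 and 232 CPM in controls and 221, 213 and 220.02 CPM in Cd276KO libraries. The HM-1 Cd276KO libraries lay above their controls and below every ID8 library, with log2 fold changes of 1.86 (SE 0.08) in HM-1 and -0.03 (SE 0.07) in ID8. Zfp518b, a zinc finger protein, was at 3.91, 6.35 and 7.14 CPM in HM-1 controls and 29.6, 26.99 and 29.8 CPM in HM-1 Cd276KO libraries. Zfp518b in ID8 was at 61.9, 63.4 and 58.6 CPM in controls and 54.5, 55.5 and 49.8 CPM in Cd276KO libraries. It too rose in HM-1 to a level under that of ID8, with log2 fold changes of 2.34 (SE 0.15) in HM-1 and -0.13 (SE 0.12) in ID8. Pag1, a membrane adaptor that binds the kinase Csk, had log2 fold changes of 1.65 (SE 0.17) in HM-1 and -0.23 (SE 0.14) in ID8, and Arhgap31, which inactivates Cdc42 and Rac, had log2 fold changes of 1.24 (SE 0.22) in HM-1 and -0.51 (SE 0.24) in ID8. Stat3 (chr11:100885098-100939540, minus strand), the transcription factor downstream of IL-6 family receptors, was at 58.3, 83.2 and 81.5 CPM in HM-1 controls and 39.7, 42.97 and 38.6 CPM in HM-1 Cd276KO libraries. Stat3 in ID8 was at 120.1, 126 and 126 CPM in controls and 103, 107 and 109 CPM in Cd276KO libraries. It fell in HM-1 with no overlap and its ID8 groups did not overlap either, with log2 fold changes of -0.84 (SE 0.11) in HM-1 and -0.15 (SE 0.11) in ID8, a difference of 0.68 (edgeR Benjamini-Hochberg adjusted p = 0.003). Without HM-1 control library 1, Stat3 was called lower in both lines, Pag1 and Arhgap31 changed class, and the exons of Stat3 overlap those of Stat5a.

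**Figure D2:**
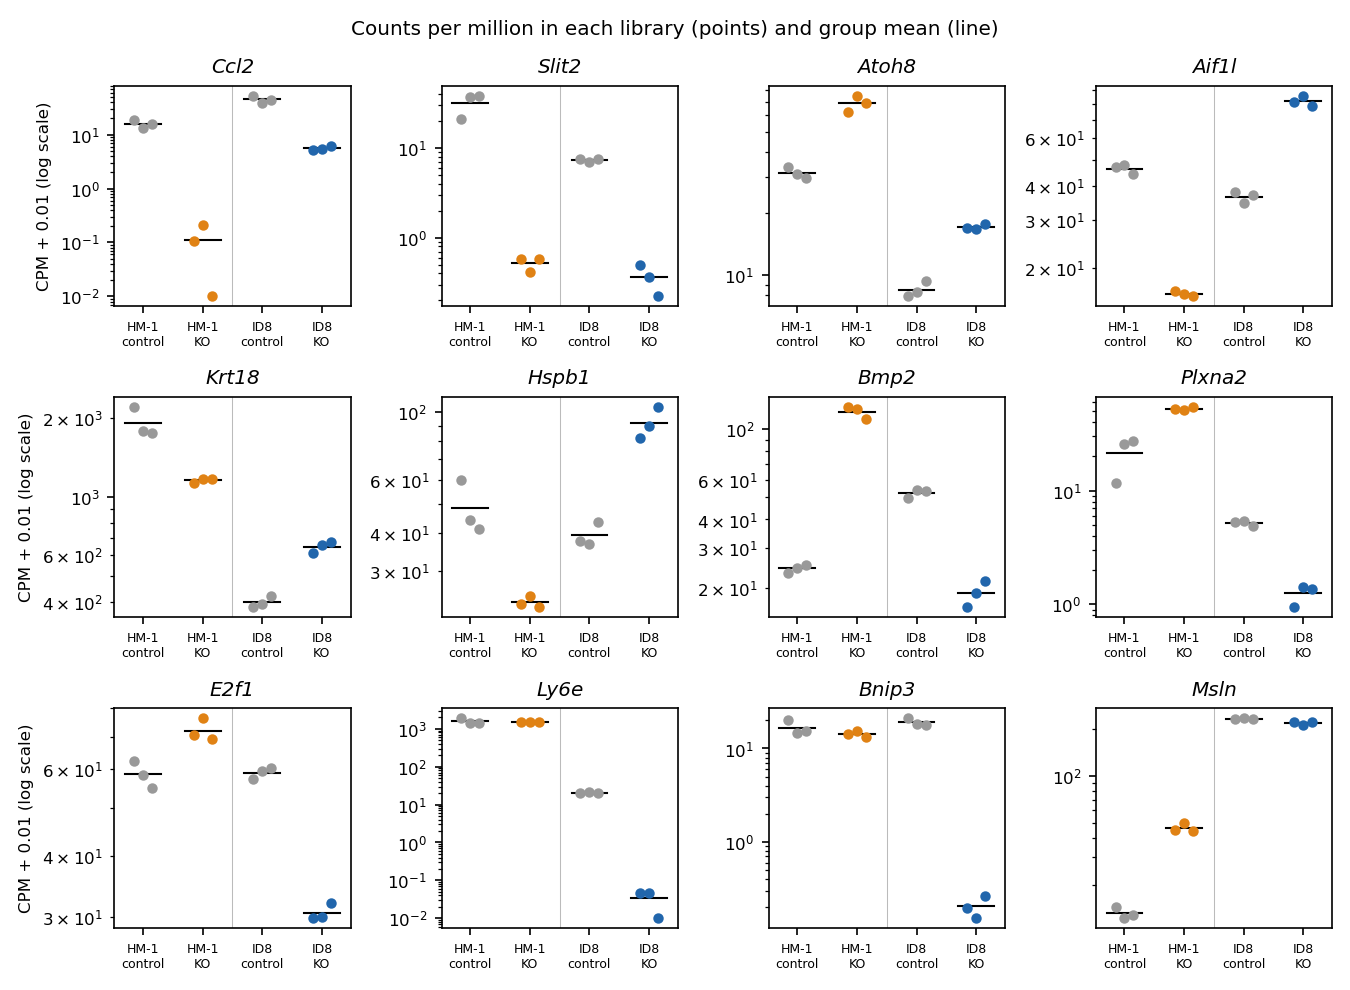
CPM (plus 0.01, log axis) of 12 genes in each of the 12 libraries, with groups on the horizontal axis, points for libraries and a line for the group mean. Ccl2 and Slit2 are low in both Cd276KO groups and Atoh8 is high in both; Aif1l, Krt18 and Hspb1 move down in HM-1 and up in ID8; Bmp2, Plxna2 and E2f1 move up in HM-1 and down in ID8; Ly6e and Bnip3 are low in ID8 Cd276KO libraries alone, and Msln is raised in HM-1 alone.

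The same comparison was made for 33 gene lists, each given by the number of its tested genes called and its median effect, beside medians over all genes of 0.00 in HM-1, -0.02 in ID8 and -0.03 for the difference. The counts of a list are read against the shares of all genes called higher and lower, which were 16.6% and 20.2% in HM-1, 19.2% and 23.6% in ID8, and 19.8% and 20.7% for the difference. List members named beyond the 2 per list that a rule picked are examples chosen after their values were seen. The interferon response list, genes that type I interferon induces through STAT and IRF factors, was the most one-sided. In ID8, 27 of its 30 genes fell and none rose, with a median of -1.999. In HM-1, 3 rose and 7 fell with a median of -0.04, and the difference between lines was called for 19, all lower in ID8, with a median of -1.83. By class, 14 were ID8-only lower, 7 shared lower and 3 opposite (Gbp2, Oasl2 and Cxcl10). Ifit1 and Isg15, effectors whose promoters are printed above, had 0.44 in HM-1 and -4.27 in ID8 and 0.03 in HM-1 and -1.29 in ID8. Their levels were low in both lines: Ifit1 was at 1.13 ± 0.321 and 0.0526 ± 0.0279 CPM (SD, n = 3) in ID8 controls and Cd276KO libraries, Isg15 at 3.43 ± 0.522 and 1.33 ± 0.179. Lgals3bp, a secreted glycoprotein, had log2 fold changes of 0.20 (SE 0.07) in HM-1 and -4.58 (SE 0.17) in ID8 and was far more abundant in HM-1. Oas1a and Rsad2, antiviral enzymes, fell in both lines (-2.37 in HM-1 and -5.43 in ID8; -1.30 in HM-1 and -3.16 in ID8). Of the factors that carry the signal, Irf7 fell in ID8 (-2.42) and Stat2 fell by less (-0.43). The 13 genes with a match to the interferon motif counted 11 lower in ID8 with a median of -1.29, and the 10 without it counted 10 with a median of -1.89.

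Of 18 genes of MHC class I presentation, which loads peptides for T cells, 10 fell in HM-1 and 11 in ID8, with medians of -0.59 and -0.58. Of the 18, 7 fell in both lines. In ID8 the peptide transporter subunits Tap2 (-3.79) and Tap1 (-3.36) fell, and Tap2 in HM-1 was -0.13 (edgeR Benjamini-Hochberg adjusted p = 0.336). In HM-1 the heavy chains H2-D1 (-1.69) and H2-K1 (-1.55) fell. H2-K1 was at 480.01, 396 and 383 CPM in HM-1 controls and 136, 139 and 143 CPM in HM-1 Cd276KO libraries. H2-K1 in ID8 was at 39.98, 36.3 and 43.04 CPM in controls and 59.9, 60.5 and 65.7 CPM in Cd276KO libraries. It rose in ID8 (0.71, SE 0.10, edgeR Benjamini-Hochberg adjusted p = 7.44e-05), from a control level far below that of HM-1, and its difference between lines was 2.26. B2m, the light chain, fell in both (-0.63 in HM-1 and -0.46 in ID8), and the class I transactivator Nlrc5 fell in HM-1 (-1.61), with -0.28 in ID8. Counts of these near-identical genes are uncertain where reads could be split among them.

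Of 22 chemokines and myeloid growth factors, 10 fell and 5 rose in HM-1 and 15 fell and 3 rose in ID8, with medians of -0.51 and -1.36. With genes at 0 in a group set at their bound and genes under the floor in both groups left out, the medians were -0.72 and -1.40. The 7 shared losses included Ccl2, its neighbour Ccl7 (from 0.212 CPM to 0 in HM-1 and -3.89 in ID8), the neutrophil chemokine Cxcl15 (-2.59 in HM-1 and -4.54 in ID8), and the macrophage growth factors Csf1 (-0.97 in HM-1 and -1.32 in ID8) and Il34 (-1.85 in HM-1 and -1.20 in ID8). Cxcl1 and Cxcl2, ligands of the neutrophil receptor Cxcr2, rose in HM-1 (1.75 and 1.16) and fell in ID8, Cxcl1 from 2.72 ± 0.239 to 0.0362 ± 0.0356 CPM (SD, n = 3) and Cxcl2 at least 3.09-fold, to 0 in all 3 libraries from 0.291, 0.0323 and 0.0380 CPM in the controls. Without ID8 control library 1 the controls of Cxcl2 are under the floor of 3 counts and give no bound. Ccl9 also rose in HM-1 and fell in ID8 (0.67 in HM-1 and -3.34 in ID8). Cxcl12, the ligand of Cxcr4, had no count in HM-1 controls and fell in ID8 from 363 ± 6.99 to 67.6 ± 2.49 CPM. Cx3cl1, a membrane-bound chemokine, moved the other way (-1.06 in HM-1 and 1.07 in ID8), and Cxcl16 was nearly lost in HM-1 (-3.90 in HM-1 and -0.06 in ID8). The NF-kB list gave 12 lower genes in each line (4 and 3 higher of 22), and its shared decreases were mostly inhibitors and subunits of the pathway, Nfkbia (-0.53 in HM-1 and -0.64 in ID8), Tnip1 (-0.47 in HM-1 and -0.42 in ID8) and Relb (-0.86 in HM-1 and -0.47 in ID8), while the adhesion molecule Icam1 rose in both (0.77 in HM-1 and 0.80 in ID8). Vcam1 fell in HM-1 (-1.78) and was 0.03 in ID8. Among 20 genes of the IL-6 family and Stat3, 3 rose and 6 fell in HM-1 and 3 rose and 7 fell in ID8. The receptor Il6ra was lower in ID8 (0.31 in HM-1 and -2.28 in ID8), and the ligand Lif fell in HM-1 and rose in ID8 (-0.72 in HM-1 and 0.49 in ID8). Of 15 checkpoint genes, 7 fell in HM-1 and 2 in ID8 (1 and 2 rose), Tigit being lower in HM-1 (-1.56 in HM-1 and -0.19 in ID8) and Lgals9 opposite (-0.57 in HM-1 and 0.47 in ID8).

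Of 32 glycolysis and hypoxia genes, 23 fell and 4 rose in ID8, with a median of -0.59, against 11 lower and 6 higher in HM-1 with a median of -0.02. The difference was called lower in ID8 for 19 and higher for 4. The enzymes Pgk1 (0.12 in HM-1 and -1.46 in ID8), Ldha (0.07 in HM-1 and -0.79 in ID8), Hk1 (-0.01 in HM-1 and -1.002 in ID8) and Pfkl (0.02 in HM-1 and -0.66 in ID8), the lactate exporter Slc16a3 (0.20 in HM-1 and -0.996 in ID8) and the growth factor Vegfa (0.13 in HM-1 and -1.23 in ID8) all fell in ID8. Pgk1 is on the X chromosome, where nearly all genes were lower in ID8 (below). Pdk1, a pyruvate dehydrogenase kinase, fell in both lines with a larger fall in ID8 (-0.21 in HM-1 and -1.88 in ID8), and Ddit4 fell in both by like amounts (-1.05 in HM-1 and -1.26 in ID8). Egln3, an oxygen sensor that hypoxia induces, rose in both (0.53 in HM-1 and 1.52 in ID8). Eno2, an enolase, was at 6.92, 8.09 and 7.39 CPM in HM-1 controls and 2.67, 2.56 and 2.63 CPM in HM-1 Cd276KO libraries. Eno2 in ID8 was at 2.80, 2.71 and 1.98 CPM in controls and 3.92, 2.99 and 3.64 CPM in Cd276KO libraries. It fell in HM-1 and rose in ID8 (2.02 between lines, edgeR Benjamini-Hochberg adjusted p = 9.51e-06). The 20 genes with an ACGTG match had 13 lower in ID8 (median -0.70), and the 8 without one 7 (median -0.47).

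Of 36 genes of oxidative phosphorylation, the difference was called higher in ID8 for 17 and lower for 1, with a median of 0.41. In HM-1 none rose and 10 fell, and in ID8 8 rose and 4 fell. Without HM-1 control library 1 these were 3 and 10 in HM-1 (median 0.01), 23 and 6 in ID8, and 19 and 3 for the difference (median 0.20), and the HM-1 median was near 0. Cox6c, a subunit of cytochrome oxidase whose exons overlap those of Vps13b, was at 209, 130.2 and 124 CPM in HM-1 controls and 90.5, 86.5 and 89.7 CPM in HM-1 Cd276KO libraries. Cox6c in ID8 was at 184, 161 and 174 CPM in controls and 208, 194 and 197 CPM in Cd276KO libraries. HM-1 control library 1 was the highest of all 12 for it, and the difference between lines was 1.03 (edgeR Benjamini-Hochberg adjusted p = 0.00243). Atp5b rose in ID8 (0.41), and Cyc1 fell in HM-1 (-0.68). The 79 genes of cytosolic ribosomal proteins moved with them, 58 higher and 3 lower in ID8 with a median of 0.46, 20 lower and none higher in HM-1 with a median of -0.24, which was -0.01 without that library. The difference was called higher for 64 and lower for 1 (median 0.69, or 0.50 without it).

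Of 33 genes of the unfolded protein response and ATF4 list, 13 rose and 5 fell in HM-1 (median 0.17) and 1 rose and 12 fell in ID8 (median -0.04). Ddit3, the stress transcription factor CHOP whose exons overlap those of Mars, was at 7.997, 7.93 and 6.97 CPM in HM-1 controls and 11.1, 9.17 and 10.98 CPM in HM-1 Cd276KO libraries. Ddit3 in ID8 was at 24.6, 23.7 and 24.7 CPM in controls and 10.6, 9.15 and 10.3 CPM in Cd276KO libraries. It rose in HM-1 and fell in ID8, with log2 fold changes of 0.49 (SE 0.10) in HM-1 and -1.21 (SE 0.10) in ID8. Vldlr, a lipoprotein receptor, fell in both and further in ID8 (-0.39 in HM-1 and -2.05 in ID8), Atf6 fell in HM-1 (-0.97, against 0.01), and Atf4 itself was called in neither line (-0.19 in HM-1 and 0.01 in ID8). Of 21 heat shock chaperones, 5 rose and 5 fell in HM-1 and 6 and 4 in ID8. Hspa1b rose in HM-1 and fell in ID8 (0.96 in HM-1 and -0.94 in ID8), opposite to Hspb1.

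Of 28 collagens and enzymes that make them, 15 fell and 2 rose in ID8, and 10 fell and 2 rose in HM-1. The medians were -1.08 in ID8 and -0.08 in HM-1, or -0.77 and -0.17 with genes at 0 set at their bound. Col5a2, a fibrillar collagen, was at 0, 0.0394 and 0 CPM in HM-1 controls and 0.0477, 0.0512 and 0.0516 CPM in HM-1 Cd276KO libraries. Col5a2 in ID8 was at 173, 168 and 179.5 CPM in controls and 0.709, 0.676 and 0.932 CPM in Cd276KO libraries. It was abundant in ID8 controls alone and fell to under 1 CPM (-7.75, SE 0.13, edgeR Benjamini-Hochberg adjusted p = 4.12e-13), and HM-1 had 1 read in its controls. Col3a1 was expressed in both lines, at 150.03 ± 23.9 CPM in HM-1 controls and 135 ± 10.4 CPM in ID8 controls (SD, n = 3). It fell in ID8 to 14.97 ± 0.953 CPM (-3.11) and was 0.22 in HM-1, a called difference of -3.33 (edgeR Benjamini-Hochberg adjusted p = 6.73e-09). The summed level of 10 fibroblast markers, Col1a1 and Col3a1 among them, was 506 to 569 CPM in ID8 controls and 373 to 388 CPM in ID8 Cd276KO libraries, and 125 to 170.1 and 168 to 174 CPM in HM-1, and the part of other cells was not tested. Col1a1 fell in both (-1.06 in HM-1 and -1.02 in ID8), and Col16a1 fell in HM-1 and rose in ID8 (-3.75 in HM-1 and 0.63 in ID8).

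Of 26 other matrix proteins, 13 fell and 6 rose in ID8 and 8 fell and 4 rose in HM-1. Fibronectin, Fn1, fell in ID8 (0.23 in HM-1 and -1.09 in ID8), osteopontin, Spp1, fell in both (-0.85 in HM-1 and -1.53 in ID8), and the proteoglycan versican, Vcan, was nearly lost in HM-1. Vcan was at 25.5, 63.4 and 62.3 CPM in HM-1 controls and 0.907, 1.08 and 0.670 CPM in HM-1 Cd276KO libraries. Vcan in ID8 was at 58.1, 55.01 and 54.7 CPM in controls and 44.4, 49.6 and 40.5 CPM in Cd276KO libraries. All ID8 libraries stayed above 40 CPM, and the difference was 5.53 (SE 0.44, edgeR Benjamini-Hochberg adjusted p = 9.17e-07). Lamb3, a laminin chain, fell in both (-0.49 in HM-1) and was at 0 in every ID8 Cd276KO library, at least 12.04-fold lower. Among 23 matrix proteases and inhibitors, 9 fell and 4 rose in HM-1 and 13 fell and 5 rose in ID8. Collagenase 3, Mmp13, fell mostly in HM-1 (-3.26 in HM-1 and -0.56 in ID8), urokinase, Plau, fell in both (-1.51 in HM-1 and -1.71 in ID8), and the metalloprotease inhibitor Timp3 was at 142 to 157 CPM in ID8 controls and 24.9 to 33.4 CPM in ID8 Cd276KO libraries, with 3 and 5 reads in the HM-1 groups, a ratio there of 1.86 (95% counting interval 0.361 to 11.95). Of 14 integrins, 6 fell and 2 rose in ID8 and 3 fell and 5 rose in HM-1, and Itgb5, which pairs with Itgav, was opposite (0.31 in HM-1 and -0.86 in ID8).

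Of 22 junction genes, 4 rose and 6 fell in HM-1 and 7 rose and 3 fell in ID8. Cldn3, a tight junction claudin, was at 1.08, 0.710 and 0.803 CPM in HM-1 controls and 0, 0.0512 and 0.0516 CPM in HM-1 Cd276KO libraries. Cldn3 in ID8 was at 5.94, 4.81 and 7.56 CPM in controls and 55.9, 60.4 and 58.2 CPM in Cd276KO libraries. It rose in ID8 (3.32, SE 0.15, edgeR Benjamini-Hochberg adjusted p = 3.08e-09) and fell in HM-1 to 2 reads, a ratio of 25.1 (95% counting interval 6.64 to 213) from controls near 1 CPM. Desmoplakin, Dsp, fell in HM-1 and rose in ID8 (-4.21 in HM-1 and 1.81 in ID8), as did the envoplakin gene Evpl (-0.62 in HM-1 and 1.38 in ID8). E-cadherin, Cdh1, went the other way, down in ID8 from 9.97 ± 0.744 to 1.99 ± 0.172 CPM (-2.25) and up in HM-1 at a level under 0.5 CPM (1.74). Of 14 genes of the mesenchymal transition, 1 rose and 6 fell in HM-1 and 5 rose and 6 fell in ID8. Of these, 4 fell in HM-1 and rose in ID8, and 1 did the reverse. N-cadherin, Cdh2, was at 69.2 to 74.5 CPM in ID8 controls and 87.3 to 90.3 CPM in ID8 Cd276KO libraries. It was under 0.2 CPM or at 0 in HM-1, at least 2.99-fold lower there in Cd276KO libraries. Twist2, a repressor of epithelial genes whose exons overlap those of Gm29100, fell in HM-1 (-1.03) and to 0 in all 3 ID8 Cd276KO libraries, at least 34.6-fold. Zeb1 and Snai1 fell in ID8 (-0.54 and -0.96) and had effects of 0.20 and 0.13 in HM-1.

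Of 17 genes of the mesothelial and ovarian surface list, 7 rose and none fell in HM-1, with a median of 0.70, which was 1.48 without HM-1 control library 2 and 0.53 without HM-1 control library 3. In 7 of the 17 both HM-1 groups were at or under 3 reads, and without them the median was 0.61. In ID8 6 rose and 4 fell, with a median of 0.06. Podxl, podocalyxin, a sialomucin of mesothelium and of kidney podocytes, was at 7.09, 11.004 and 8.62 CPM in HM-1 controls and 12.7, 13.4 and 12.5 CPM in HM-1 Cd276KO libraries. Podxl in ID8 was at 21.8, 21.8 and 21.4 CPM in controls and 119, 117 and 107 CPM in Cd276KO libraries. It rose in both lines and more in ID8, with log2 fold changes of 0.56 (SE 0.12) in HM-1 and 2.47 (SE 0.11) in ID8. The uroplakins Upk1b (1.95 in HM-1 and 0.77 in ID8) and Upk3b (ID8 1.83) rose, as did Lrrn4 in ID8 (3.19). Gata4 was at 112 to 130 CPM and 110 to 131 CPM in the ID8 groups, at 0 in HM-1 controls and under 0.2 CPM in HM-1 Cd276KO libraries, at least 1.86-fold higher, and it was not called in ID8 (0.06). Of 10 gut-type mucosal genes, 7 rose and none fell in HM-1, with a median of 1.40, and 6 of its 10 genes were at or under 3 reads in both ID8 groups. The intestinal transcription factors Cdx2 and Hnf4a rose in HM-1 (1.24 and 3.18), as did the trefoil factor Tff1 (2.63). Clca3a1, a protein of the Clca family, was at 24.8, 35.4 and 38.3 CPM in HM-1 controls and 204, 205 and 209 CPM in HM-1 Cd276KO libraries. Clca3a1 in ID8 was at 2.11, 1.97 and 2.05 CPM in controls and 0.560, 1.03 and 1.10 CPM in Cd276KO libraries. It rose in HM-1 and fell in ID8 from a level near 2 CPM, with log2 fold changes of 2.69 (SE 0.14) in HM-1 and -1.12 (SE 0.25) in ID8.

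Of 28 Wnt genes, 9 rose and 3 fell in HM-1 and 8 rose and 9 fell in ID8, with medians of 0.42 and -0.15 (0.25 in HM-1 without control library 1), and the difference was called lower in ID8 for 10 and higher for 3. Wnt5a, a ligand of the branch that does not act through beta-catenin, was at 0.284, 0.394 and 0.169 CPM in HM-1 controls and 1.53, 1.74 and 2.11 CPM in HM-1 Cd276KO libraries. Wnt5a in ID8 was at 64.1, 66.3 and 68.3 CPM in controls and 22.7, 22.8 and 21.7 CPM in Cd276KO libraries. It rose in HM-1 from a trace level and fell in ID8 from a high one, with log2 fold changes of 2.67 (SE 0.24) in HM-1 and -1.50 (SE 0.09) in ID8. Beta-catenin, Ctnnb1, rose in HM-1 (0.63, against -0.11), and the receptor Fzd1 was reduced in HM-1 to 2 reads, a ratio of 97.4 (95% counting interval 26.7 to 809.7), against -0.28 in ID8. Wnt2 rose in ID8 (4.28). In the TGF-beta and BMP list of 30, 12 rose and 7 fell in HM-1 and 11 rose and 9 fell in ID8. Id1 and Id3, direct targets of BMP signalling, rose in ID8 (1.33 and 1.71) where Bmp2 fell, and were lower or not called in HM-1 (-0.30, called, and -0.18) where Bmp2 rose. Smad1, a transducer of BMP signals, was near 1 CPM in ID8 controls and at 0 in ID8 Cd276KO libraries, at least 26.9-fold lower, and 0.13 in HM-1. The BMP antagonist Grem1 fell in ID8 (-4.68), and Tgfb1 fell in HM-1 and rose in ID8 (-0.53 in HM-1 and 0.85 in ID8).

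Of 16 Notch genes, 4 rose and 5 fell in HM-1 and 5 rose and 6 fell in ID8. The receptor Notch3 fell in ID8 (-1.84) and had 2 and 15 reads in the HM-1 groups, a ratio of Cd276KO over control of 8.35 (95% counting interval 1.94 to 75.3). The ligand Dll1 rose in HM-1 and fell in ID8 (1.90 in HM-1 and -1.64 in ID8), and the ligand Jag2 rose in both, by more in ID8 (0.32 in HM-1 and 2.32 in ID8). YAP and TEAD targets counted 8 higher and 3 lower of 20 in HM-1 and 9 and 3 in ID8. Its 2 classic targets Ankrd1 (-0.99 in HM-1 and 0.87 in ID8) and Ccn2 (-0.999 in HM-1 and 0.50 in ID8) fell in HM-1 and rose in ID8, Ccn1 rose in both (0.30 in HM-1 and 0.27 in ID8), and the factor Tead2 rose in HM-1 and nearly disappeared in ID8. Tead2 was at 54.9, 48.5 and 42.6 CPM in HM-1 controls and 71.04, 71.4 and 66.6 CPM in HM-1 Cd276KO libraries. Tead2 in ID8 was at 5.17, 4.88 and 5.89 CPM in controls and 0.224, 0.285 and 0.0424 CPM in Cd276KO libraries. Its groups did not overlap in either line, with log2 fold changes of 0.56 (SE 0.12) in HM-1 and -4.69 (SE 0.27) in ID8. In the actin list of 17, 3 rose and 3 fell in HM-1 and 1 rose and 4 fell in ID8. Filamin A, Flna, on the X chromosome, rose in HM-1 and fell in ID8 (0.74 in HM-1 and -0.81 in ID8). Flna was at 678 CPM in HM-1 control library 1, 1300 and 1244 CPM in the other HM-1 controls and 1632 to 1831 CPM in HM-1 Cd276KO libraries. The myosin heavy chain Myh10 also rose in HM-1 and fell in ID8 (1.11 in HM-1 and -2.37 in ID8), and was under 1 CPM in HM-1.

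Of 25 targets of p53, 14 fell and 1 rose in HM-1, with a median of -0.37, and 9 rose and 7 fell in ID8, with a median of 0.02. The difference was called higher in ID8 for 11 and lower for 2. Mdm2, whose product marks p53 for breakdown, fell in HM-1 (-0.80 in HM-1 and 0.16 in ID8), and Plk2 (-0.71 in HM-1 and 0.44 in ID8), Ccng1 (-0.37 in HM-1 and 0.22 in ID8) and Trp53 itself (-0.26 in HM-1 and 0.33 in ID8) fell in HM-1 and rose in ID8. Cdkn1a, the p21 inhibitor, fell in both (-0.51 in HM-1 and -0.24 in ID8), and the death receptor Fas fell in ID8 (-1.81, against -0.43). Of 39 cell cycle genes, 11 rose and 6 fell in HM-1 and 16 rose and 5 fell in ID8, by small amounts. E2f1, a transcription factor of S phase entry, was at 62.3, 58.4 and 55.01 CPM in HM-1 controls and 70.5, 76.4 and 69.1 CPM in HM-1 Cd276KO libraries. E2f1 in ID8 was at 57.3, 59.6 and 60.2 CPM in controls and 29.8, 29.9 and 31.9 CPM in Cd276KO libraries. It rose in HM-1 and fell in ID8 (0.34 in HM-1 and -0.88 in ID8). Foxm1 and Mki67, genes of mitotic cells, rose in HM-1 (0.99 and 0.57), while Ccne2, Cdk1 and Birc5 rose in ID8 (0.78, 0.42 and 0.41). Foxm1 was at 105 CPM in HM-1 control library 1, 155 and 153 CPM in the other HM-1 controls and 261 to 271 CPM in HM-1 Cd276KO libraries. Immediate early genes gave 9 higher and 11 lower of 26 in HM-1 and 9 and 3 in ID8: Jun fell in HM-1 (-1.23 in HM-1 and -0.02 in ID8), Fos rose there (1.30 in HM-1 and -0.30 in ID8), and Egr1 fell in both with a larger fall in ID8 (-0.28 in HM-1 and -2.33 in ID8).

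Of 31 genes of cholesterol and fatty acid synthesis, 13 fell in HM-1 and 16 in ID8, with 1 higher in each, and 7 fell in both. With HM-1 control library 1 left out, 19 fell in HM-1 and 23 in ID8, with 3 higher in each, and 14 fell in both. Hmgcs1, an enzyme of sterol synthesis, fell further in ID8 (-0.20 in HM-1 and -1.20 in ID8), Fdft1 further in HM-1 (-0.79 in HM-1 and -0.29 in ID8), and the X-linked enzymes Ebp (0.10 in HM-1 and -0.97 in ID8) and Nsdhl (-0.37 in HM-1 and -1.38 in ID8) had the 2 largest called differences. Of 36 lysosome and autophagy genes, 18 fell and 1 rose in ID8 and 11 fell and 6 rose in HM-1. The regulator Tfe3 and the membrane protein Lamp2, both X-linked, fell in ID8 (-1.37 and -1.26), and Lamp1 rose in HM-1 and fell in ID8 (0.67 in HM-1 and -0.22 in ID8). Mitf, a relative of Tfe3, was lower in HM-1 (-3.11) and under 0.5 CPM in ID8. The NRF2 and antioxidant list had 13 of 32 lower and 4 higher in ID8 and 7 lower and 9 higher in HM-1. The glutathione transferases Gstm1 (-0.16 in HM-1 and -2.92 in ID8) and Gstm2 (-0.26 in HM-1 and -2.78 in ID8) fell in ID8, as did Sod1 (-0.20 in HM-1 and -0.89 in ID8), and the metallothionein Mt2 fell in HM-1 (-1.90 in HM-1 and 0.83 in ID8). Complement genes fell in 8 of 11 cases in ID8 with 1 higher (median -1.37) and in 5 in HM-1. C3 (-1.21 in HM-1 and -1.93 in ID8), C1s1 (-2.09 in HM-1 and -2.50 in ID8) and the clusterin gene Clu (-1.58 in HM-1 and -1.001 in ID8) fell in both, and the lectin-pathway protease Masp1 fell in ID8 (0.27 in HM-1 and -3.54 in ID8). Among 20 genes of drug efflux and metabolism, 5 rose and 6 fell in HM-1 and 7 rose and 8 fell in ID8. The efflux pumps Abcb1a and Abcg2 were each expressed in 1 line: Abcb1a rose in HM-1 (1.19) and had 10 and 2 reads in ID8, and Abcg2 rose in ID8 (0.64) and was under 0.6 CPM in HM-1. Of 11 imprinted genes, 3 rose and 4 fell in HM-1 and 1 rose and 5 fell in ID8. Igf2r fell in both, mostly in HM-1 (-3.34 in HM-1 and -0.53 in ID8), and Peg13 was opposite (0.76 in HM-1 and -2.42 in ID8).

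**Figure D3:**
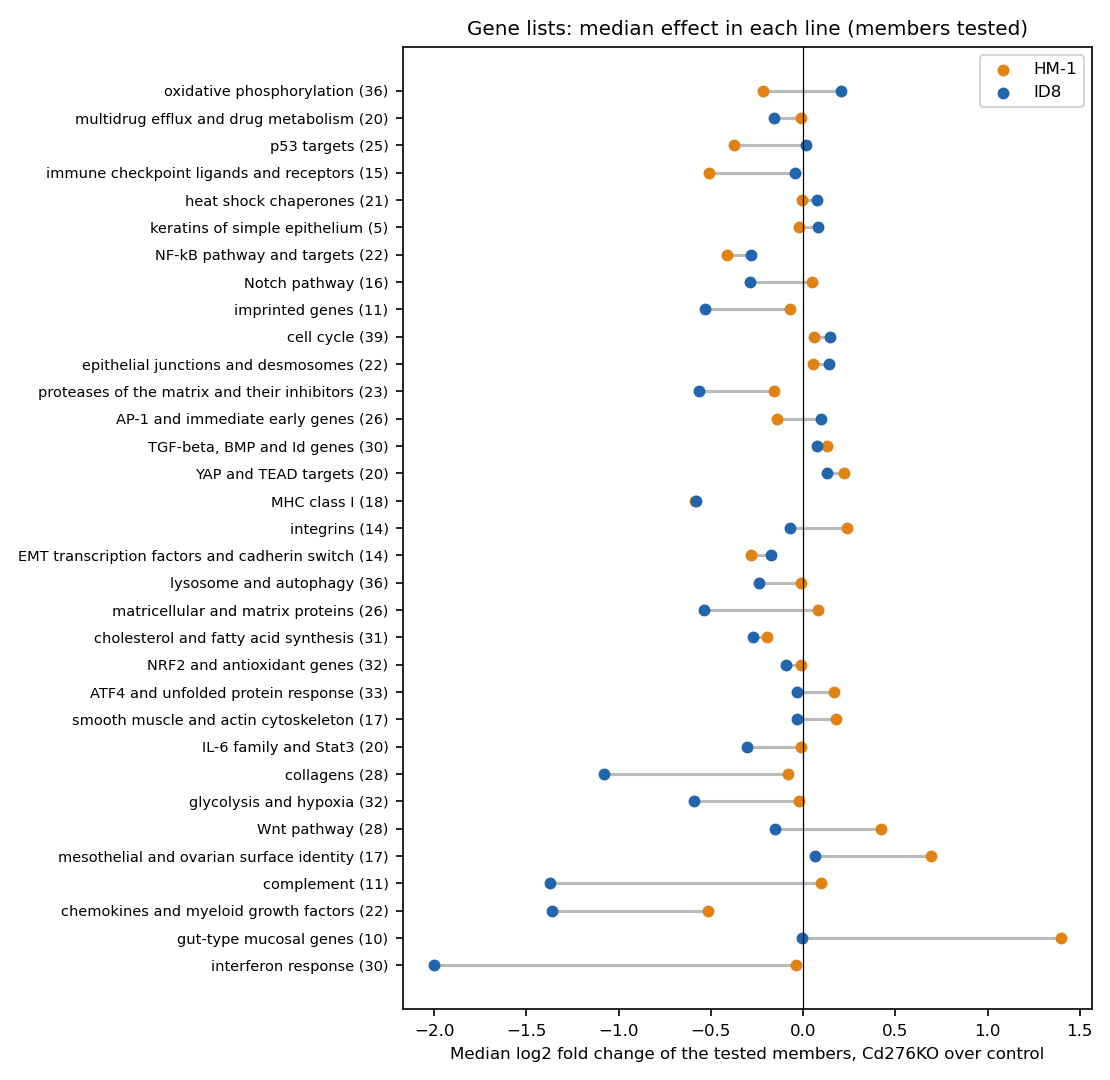
Median log2 fold change of each of 33 gene lists in HM-1 and in ID8, sorted by the difference between the lines. The interferon response list has the lowest ID8 median (-1.999) with an HM-1 median near 0, the gut-type list the highest HM-1 median (1.40), and oxidative phosphorylation lies below 0 in HM-1 and above it in ID8.

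Effects differed by chromosome, on different chromosomes in each line. The chromosome results cover 9935 protein-coding genes whose level, averaged over the 12 libraries of cultured cells, reached 5 CPM or more. Of these, the share called was 19.9% higher and 21.6% lower in HM-1 and 23.2% and 24.6% in ID8. In ID8, 274 of 296 X-linked genes were lower (92.6%), with a median of -0.83, against -0.06 in HM-1. The 4 X-linked genes that rose were Bex2 (3.66), Chic1 (2.53), Gm21887 (0.74) and Stk26 (0.68). On chromosome 16, 238 of 315 genes were lower in ID8 (75.6%), with a median of -0.50 against 0.09 in HM-1, and the 5 that rose were Robo1 (2.42), a Slit receptor, St3gal6 (1.12), Upk1b (0.77), Cmss1 (0.65) and Hes1 (0.47). These 9 genes fall outside the naming rule and were chosen after their values were seen. Chromosome 19 was shifted up in ID8, with 182 of 375 genes higher (48.5%) and a median of 0.25, and chromosome 1 down, with a median of -0.20.

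The shifts of HM-1 were on other chromosomes. Its medians were 0.33 on chromosome 6, where 263 of 468 genes were higher (56.2%), 0.26 on chromosome 12 and 0.24 on chromosome 8, and -0.31 on chromosome 15, where 235 of 419 genes were lower (56.1%), -0.27 on chromosome 4, -0.24 on chromosome 14 and -0.22 on chromosome 13. Chromosome 11 had a smaller shift, with a median of -0.15, 305 of 843 genes lower (36.2%) and 57 higher. The HM-1 medians of the remaining chromosomes lay between -0.06 and 0.09. The shifts were alike in all 3 Cd276KO libraries of a line. The X chromosome of ID8 was at -0.81, -0.81 and -0.85 relative to the control mean and chromosome 16 at -0.49, -0.49 and -0.51, while chromosome 6 of HM-1 was at 0.31, 0.29 and 0.30. In bins of 20 Mb with at least 20 genes the ID8 medians were -0.94 to -0.70 over the X chromosome and -0.55 to -0.41 over chromosome 16, where smaller bins of 19 and 15 genes were at -0.98 and -0.34. The HM-1 medians were 0.28 to 0.38 over chromosome 6 and -0.48 to -0.26 over chromosome 15. Chromosome 14 of HM-1 was not uniform, with -0.37 to -0.17 in the bins up to 80 Mb and 0.08, 0.33 and 0.24 in the 3 bins beyond, which held 9, 16 and 12 genes. Some HM-1 chromosomes with a median near 0 also varied along their length. Their bins of at least 20 genes ran from -0.26 to 0.29 on chromosome 1, from -0.31 to 0.18 on the X chromosome and from -0.20 to 0.13 on chromosome 10. Outside the X chromosome and chromosome 16, ID8 had 24.6% of 9324 genes higher and 20.7% lower, so decreases did not outnumber increases there. Xist, the RNA that coats the inactive X chromosome, was at 179 to 252 CPM in ID8 controls and 145 to 246 CPM in ID8 Cd276KO libraries and at most 0.103 CPM in HM-1. DNA copy number was not measured, and its part in these shifts was not tested.

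**Figure D4:**
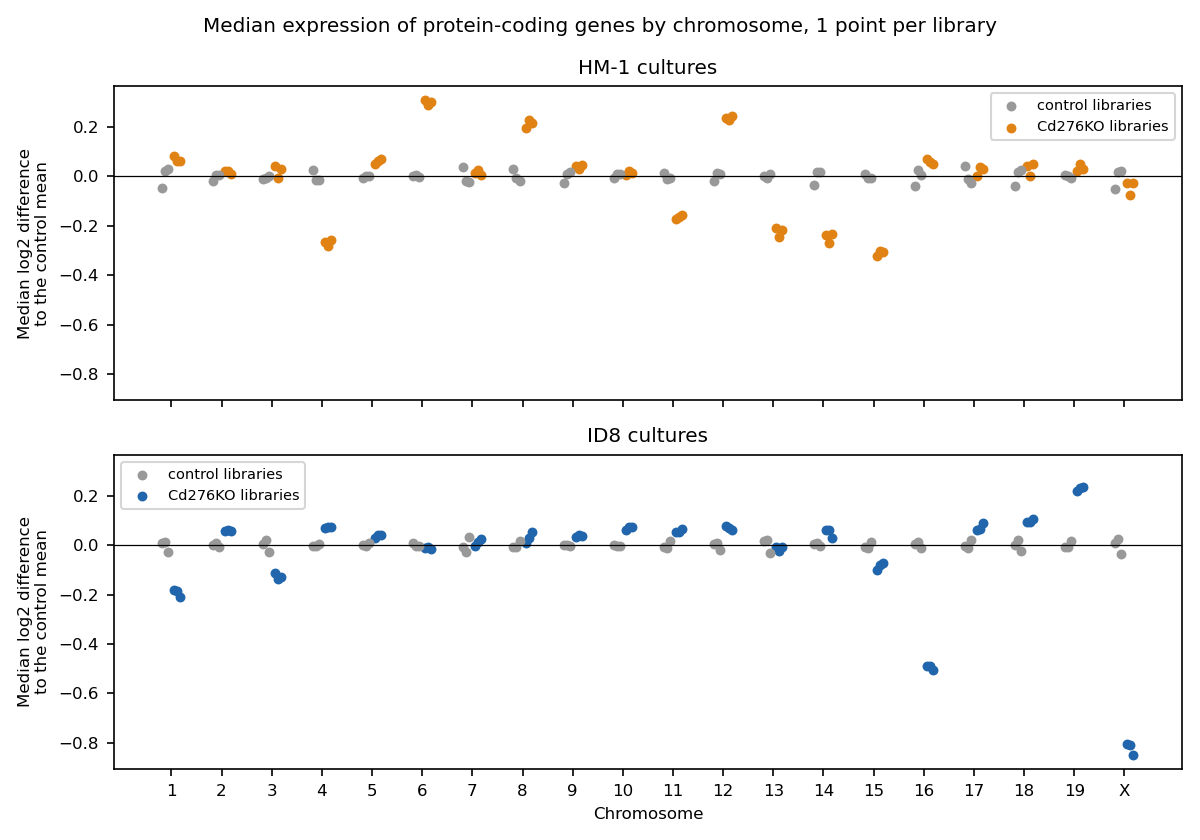
Median log2 difference from the mean of the controls, by chromosome, for each library, with HM-1 in one panel and ID8 in the other. Control libraries stay near 0, the 3 ID8 Cd276KO libraries fall together on the X chromosome (near -0.8) and on chromosome 16 (near -0.5), and the 3 HM-1 Cd276KO libraries are raised on chromosomes 6, 8 and 12 and lowered on 4, 11, 13, 14 and 15.

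Transcript length also went with the difference. The protein-coding genes used for the chromosome results, chosen by their 12-library average, were split into 5 equal classes by the length of their longest transcript. The lengths were 383 to 2085 bases in the shortest class and 5470 to 123179 bases in the longest. In HM-1 the median effects ran from -0.17 through -0.05, 0.02 and 0.09 to 0.21 from the shortest to the longest class, and in ID8 from 0.16 through 0.05, 0.00 and -0.03 to -0.14. The difference was called higher in ID8 for 814 and lower for 220 of 1990 genes in the shortest class, and higher for 163 and lower for 709 of 1987 in the longest, with medians of 0.32 and -0.37. Without HM-1 control library 1 the HM-1 medians were -0.04, -0.01, 0.00, 0.01 and 0.06, and those of the difference 0.19 and -0.20 at the 2 ends, so most of the gradient in HM-1 was not seen without that library. The part of transcript length in single genes was not tested.

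**Figure D5:**
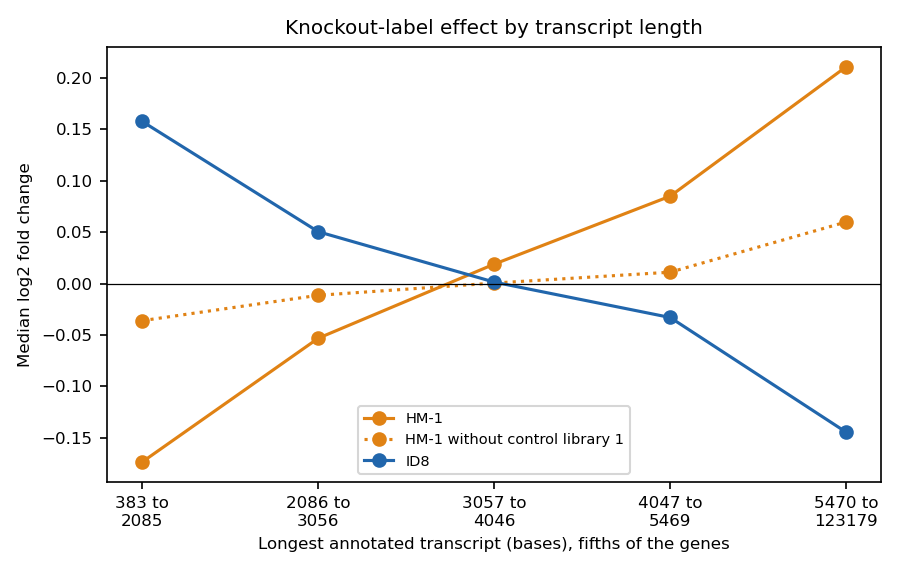
Median log2 fold change of genes in 5 equal classes of transcript length, for HM-1, for HM-1 without control library 1 and for ID8. The HM-1 line climbs from -0.17 to 0.21, lies between -0.04 and 0.06 without that library, and the ID8 line descends from 0.16 to -0.14.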

How the data were processed

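Per the labels, the RNA came from RNeasy Mini Kit preparations and the libraries from a standard Illumina procedure. Trim Galore, STAR and HTSeq, with GRCm38 (mm10) as the build, are listed per the submitters' processing notes. Their versions, the counting mode and the handling of strand are not stated there, so antisense and overlapping genes cannot be told apart. The values the authors deposited are whole-number read counts per gene for 54752 genes, not normalized. The design text names DESeq2 for the authors' comparisons of 3 against 3 samples, which were not analysed here.

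Symbols and coordinates came from GENCODE M21, which held 53861 of the identifiers in the same version and 54723 in any version. Promoters came from RefSeq on GRCm38.p6. The 12 columns of cultured cells entered 1 edgeR 4.0.16 model (R 4.3.3) with 4 groups, TMM scaling, the filterByExpr filter, robust glmQLFit and glmQLFTest, and 3 contrasts: each line's knockout effect and their difference. A total of 14208 genes passed the filter, and genes that passed through 1 group alone are among them. The 6 tumor columns did not enter this model. They were used in an alternative model over all 18 libraries and in a description of expression by chromosome. SE is the absolute log2 fold change over the square root of F. Bounds for groups with no read used a floor of 3 counts over the group, and ratios for groups of 1 to 3 reads have exact 95% binomial intervals, both for counting error only. Named genes were Cd276, Ccl2, Stat3 and Mrc1, the 4 protein-coding genes per class with the largest smaller effect (or the largest difference in the line-only classes) with at least 5 CPM in both lines and separated groups, and the 2 members per list with the largest called difference and at least 5 CPM in a group. Genes without a symbol, predicted genes, pseudogenes and receptor segments were left out. The members and lists were chosen with earlier results of these data known. On simulated counts of 14041 genes the model recovered 28% of differences of 1.5-fold, 86% of 2-fold and 100% of 4-fold and 8-fold, and 6.55% of its calls were false. The changed genes were drawn only from well-counted genes expressed in the controls of both lines, without large HM-1 effects. No simulated library was made to stand apart as HM-1 control library 1 did. These shares therefore need not hold for genes with low counts, for genes of 1 line or for the data with that library. Alternatives were other scalings, filters, tools and models, and leaving out each library.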

Additional observations from a re-analysis of the deposited data

Results flagged for a closer look

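The difference between the knockout effects of the 2 lines was tested by the interaction term of the 12-library model, and each value below passed that test (edgeR, Benjamini-Hochberg adjusted p under 0.05), for which 5747 genes passed in all. Values are the log2 fold change in ID8 minus that in HM-1, and genes are grouped by their calls in the 2 lines.

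Among genes higher in both lines the difference was 0.66 for Lmo7, 1.92 for Mrc1 and 1.91 for Podxl. Genes lower in both lines fell by different amounts, with differences of 5.48 for Birc3, 0.65 for C1ra, 4.23 for Ccl2, -2.05 for Egr1, 2.80 for Igf2r, -5.96 for Lamb3, 2.70 for Mmp13, -1.01 for Nsdhl, 4.74 for Pogk, 4.56 for Renbp, 1.62 for Slit2, -6.92 for Twist2 and -1.66 for Vldlr. Genes lower in HM-1 and higher in ID8 had differences of 2.76 for Abcg2, 2.73 for Aif1l, 1.86 for Ankrd1, 5.90 for Bcam, 5.28 for Cdh2, 7.75 for Cldn3, 4.38 for Col16a1 and 0.88 for Cox7a2. The same class held 5.09 for Ctsh, 2.02 for Eno2, 2.26 for H2-K1, 2.28 for Hspb1, 1.45 for Krt18, 1.04 for Lgals9, 1.22 for Lif and 12.71 for Perp. Genes higher in HM-1 and lower in ID8 had differences of -3.74 for Bmp2, -4.17 for Cemip, -3.81 for Clca3a1, -5.69 for Cxcl2, -1.71 for Ddit3, -3.54 for Dll1, -1.22 for E2f1 and -1.55 for Flna. The same class held -1.91 for Itgb8, -3.48 for Myh10, -4.75 for Notch3, -3.18 for Peg13, -3.33 for Plxna2, -5.25 for Tead2, -3.27 for Tns4 and -4.17 for Wnt5a. Genes higher in ID8 with no call in HM-1 had differences of 2.40 for Dock4, 2.78 for F2rl1, 2.47 for Itgb4 and 3.29 for Zbtb8a. Genes lower in ID8 with no call in HM-1 had differences of -6.36 for Bnip3, -9.24 for Col5a2, -7.35 for Cxcl5, -1.07 for Ebp, -1.38 for Fas, -2.77 for Gstm1, -2.60 for Il6ra and -5.97 for Kctd14. The same class held -4.78 for Lgals3bp, -9.26 for Ly6e, -3.81 for Masp1, -7.72 for Smad1, -3.66 for Tap2, -1.50 for Tfe3 and -3.20 for Timp3. Genes higher in HM-1 with no call in ID8 had differences of -3.13 for Abcb1a, -1.75 for Arhgap31, -1.59 for Fos, -0.96 for Foxm1, -4.07 for Gata4, -0.62 for Krt19, -1.89 for Msln, -1.88 for Pag1 and -2.47 for Zfp518b. Genes lower in HM-1 with no call in ID8 had differences of 10.04 for Akip1, 0.80 for Cd276, 14.37 for Ckap4, 1.03 for Cox6c, 6.07 for Fzd1, 4.001 for Hspb8, 9.29 for Ivns1abp, 2.02 for Mitf, 2.74 for Mt2, 0.68 for Stat3, 1.37 for Tigit, 10.15 for Tmem37 and 5.53 for Vcan.

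The fitted differences of Perp, Ckap4, Akip1, Tmem37, Cdh2, Hspb8, Gata4, Cxcl2, Lamb3, Smad1 and Twist2 involve a group with no read and depend on the prior count that edgeR adds, so their size is no bound. For Hspb8 in HM-1, where no Cd276KO library held a read and the controls held 0.0394 to 0.17 CPM, the fold was at least 1.80. The class of Abcb1a, Abcg2, Arhgap31, Cox6c, Cox7a2, Cxcl5, Dock4, Ebp, F2rl1, Fzd1, Gata4, Hspb8, Itgb4, Ivns1abp, Lgals3bp, Mitf, Mt2, Pag1, Stat3, Timp3 and Vcan was another one without HM-1 control library 1.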

How the results depend on the processing

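Over 20 alternatives the 92 named genes gave 1792 values with the same direction and side of the threshold for the difference between lines, 40 that lost the call, 1 that gained it and 7 that turned. The turned ones had the smallest differences: Atp6v0e2 was -0.019 without HM-1 control 3 (up to 0.28 without another library), and Plekhh1, which reached 0.35 without HM-1 control 1, was -0.039 with a replicate block, -0.13 and -0.16 without HM-1 control 2 and 3, -0.01 without HM-1 Cd276KO 3, -0.02 without ID8 control 1 and -0.10 without ID8 Cd276KO 2.

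Counts of calls moved with the model, and the cause was not tested. With voom quality weights, which gave HM-1 control library 1 a weight of 0.0620, shared genes came to 2500 and opposite genes to 2392. With all 18 libraries in the model HM-1 gave 3431 genes, and shared and opposite genes came to 537 and 607. With each line fitted alone HM-1 gave 3452 genes and the HM-1-only classes 925. Leaving out each library in turn gave 4941 to 7143 genes for the difference, 4029 to 6511 for HM-1, 5003 to 8488 for ID8, 865 to 2123 shared, 959 to 2023 opposite, 1777 to 2687 ID8-only and 1247 to 1723 HM-1-only, and the upper ends of the shared and opposite ranges came without HM-1 control library 1. DESeq2 called 5487 genes for the difference. Deviations of same-numbered libraries from their group means correlated at -0.027 to 0.013 in HM-1 and 0.036 to 0.113 in ID8. Those of differently numbered libraries correlated at -0.037 to 0.060 in HM-1 and -0.150 to 0.054 in ID8. The ranges overlapped in both lines, and in ID8 the same-numbered one lay higher. With the replicate block the difference was called for 5401 genes, HM-1 for 4949, ID8 for 5796, and the classes held 1023 shared, 1181 opposite, 1533 HM-1-only and 2080 ID8-only genes. In the simulated counts, with 50 genes changed at each fold, 28% of differences of 1.5-fold were recovered. The data had far more called differences, 5747 genes, so that share need not hold for them. Upper-quartile scaling moved the median of all genes to -0.04 in HM-1, -0.01 in ID8 and 0.03 for the difference. Of the list medians printed, the scalings turned the sign of that of the heat shock list in HM-1 alone, where it is -0.01.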

Other observations

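Expression by chromosome in the 6 HM-1 tumor libraries, used above only in the alternative model over all 18 libraries, was set against the mean of the tumor controls in the same way as for the cultures. The 3 Cd276KO tumors had medians of 0.32, 0.30 and 0.30 on chromosome 6, 0.21, 0.21 and 0.24 on chromosome 12, and 0.21, 0.16 and 0.16 on chromosome 8. They had -0.24 in each on chromosome 4, -0.31, -0.22 and -0.26 on chromosome 13, -0.24, -0.19 and -0.22 on chromosome 14, and -0.18, -0.23 and -0.21 on chromosome 15. Chromosome 11 was at -0.11, -0.14 and -0.11. Control tumors lay between -0.15 and 0.12 on these chromosomes. The chromosomes raised and lowered in cultured HM-1 Cd276KO cells had medians of the same sign in the Cd276KO tumors, which hold other cells as well. Whether the copy number of these chromosomes differed was not tested.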
